A study of Mus musculus with 14 samples.

Results

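The 9 genes described here regulate, mark or relay the signal of the hormone-sensing lineage of the mouse mammary gland: Esr1, Pgr, Foxa1, Gata3, Cited1, Myb, Tbx3, Tnfsf11 and Prom1. They were found by gene symbol among probe sets (groups of array probes for a transcript) that carry a single symbol, and all 9 were measured, of 22180 genes in all. The study profiled luminal cells from the mammary glands of adult virgin mice, sorted on CD24, an epithelial surface protein, and ICAM-1, an adhesion molecule. Lu-neg cells were CD24+ ICAM-1- and Lu-pos cells were CD24+ ICAM-1+; no engineered allele and no treatment is given for either population, and antibodies to CD45 and CD31, which mark immune and endothelial cells, were also used. Each population gave 7 samples, 1 Affymetrix array each after amplification of the RNA, and the samples that share a replicate number (1 to 7) were taken as a pair from 1 pool of glands, as the study describes them as paired. Females were BALB/cByJ JAX or C57Bl/6, and which strain a pool came from is not stated in the sources used here.

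In the virgin gland, estrogen and progesterone act on luminal cells that carry the nuclear receptors for these hormones. These hormone-sensing cells relay the signal through secreted or membrane-bound ligands to neighbouring cells that lack the receptors. FOXA1 opens chromatin for the estrogen receptor, GATA3 directs luminal differentiation, and RANKL, the product of Tnfsf11, is a main relay of progesterone. The comparison addressed how far ICAM-1 parts these cells from the luminal progenitors.

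Levels are deposited log2 intensities, so a difference of 1 is a doubling of signal. A level is compared only between samples for the same gene, since probe sets differ in brightness. Genes for olfactory and vomeronasal receptors set a background of 3.73, below which 95% of their mean levels lay. At 0.05 after Benjamini-Hochberg adjustment over all 22180 genes, limma with the pool as a block called 1595 genes lower and 964 higher in Lu-pos. Lower genes were 62.3% of the calls, and 48.9%, 46.4% and 51.6% with housekeeping scaling, 75th percentile scaling and quantile normalization, which moved the median log2 fold change of all genes by 0.06, 0.08 and 0.02. The sorted cells carried luminal markers: the mean level of 10 luminal epithelial genes was 9.82 to 10.1 over Lu-neg arrays and 9.71 to 9.99 over Lu-pos arrays. Icam1 was higher in Lu-pos in 6 of 7 pools, by 1.12 on the log2 scale (standard error 0.30, adjusted p = 0.0403, limma), although this call was lost on leaving out pool 1, 4, 5, 6 or 7 (adjusted p up to 0.102). Ptprc, which encodes CD45, was below background, with means of 3.04 and 2.96. Pecam1, which encodes CD31, was at 5.67 ± 0.81 in Lu-neg and 5.35 ± 1.08 in Lu-pos (SD, n = 7 each).

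Promoters of the members are shown because the genes fell together, so that a reader can see which short elements they share. RefSeq windows of assembly GRCm38.p6 held 12 windows for 8 of the 9 genes, with none for Tbx3, and the 250 bases before each start were searched on both strands. Each stretch is printed 5′ to 3′ on the strand of its gene, with motif matches in capitals; none of these matches overlap. CCAAT, read as ATTGG on the other strand, was found in 6 of the 8 genes (Esr1, Pgr, Foxa1, Tnfsf11, Prom1 and Cited1), in 6 of their 12 windows, and in 33.8% of all 32851 windows. The stretches lie at chr10:4611826-4611956 (plus strand) for Esr1, chr9:8899754-8899782 (plus) for Pgr, chr12:57546234-57546280 (minus) for Foxa1, chr14:78308091-78308119 (minus) for Tnfsf11 and chr5:44101755-44101783 (minus) for Prom1, all upstream of an annotated start.
Esr1: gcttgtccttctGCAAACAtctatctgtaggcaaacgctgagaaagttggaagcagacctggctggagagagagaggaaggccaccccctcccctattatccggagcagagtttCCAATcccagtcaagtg
Pgr: atctagccagtgATTGGctagggaggggc
Foxa1: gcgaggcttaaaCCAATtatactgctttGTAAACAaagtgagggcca
Tnfsf11: tcctggaggctgATTGGctctggaggcca
Prom1: acgggctctcacCCAATcactcttgtggt

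A forkhead motif was present in both Esr1 and Foxa1. TGTTTGC, read as GCAAACA in the Esr1 stretch, was in 4.3% of all windows, and TGTTTAC, read as GTAAACA in the Foxa1 stretch, was in 3.17%. A T-box motif, GGTGTGA, was found in Myb (3.33% of all windows) and AGGTCA, a single arm of the estrogen response element, in Cited1 (14%). The palindromic estrogen response element, the progesterone response element, the GATA motifs AGATAA and TGATAA and the MYB motif AACGG had no match in the members' windows; they were found in 0.0639%, 0.387%, 9.99%, 7.94% and 14.5% of all windows. A match is a run of letters and not a measured site.

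All 9 genes were lower in Lu-pos than in Lu-neg in each of the 7 pools, a pattern met by 7.11% of all genes. After adjustment, 8 of the 9 were called lower and 0 higher, against a background of 7.19% of genes called lower; Gata3 was not called. In 6 genes every Lu-pos array lay below every Lu-neg array, as in 1.67% of all genes. The members' median log2 fold change was -1.34, and that of all genes was -0.02. For each of the 9 genes the exact two-sided sign-flip permutation test over the 7 pools gave p = 0.0156, the smallest that 7 pools allow. That value follows whenever all 7 differences share a sign, so it restates the shared direction and adds no further evidence. In sorted populations, fewer cells of a type and less RNA per cell cannot be told apart.

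**Figure D1:**
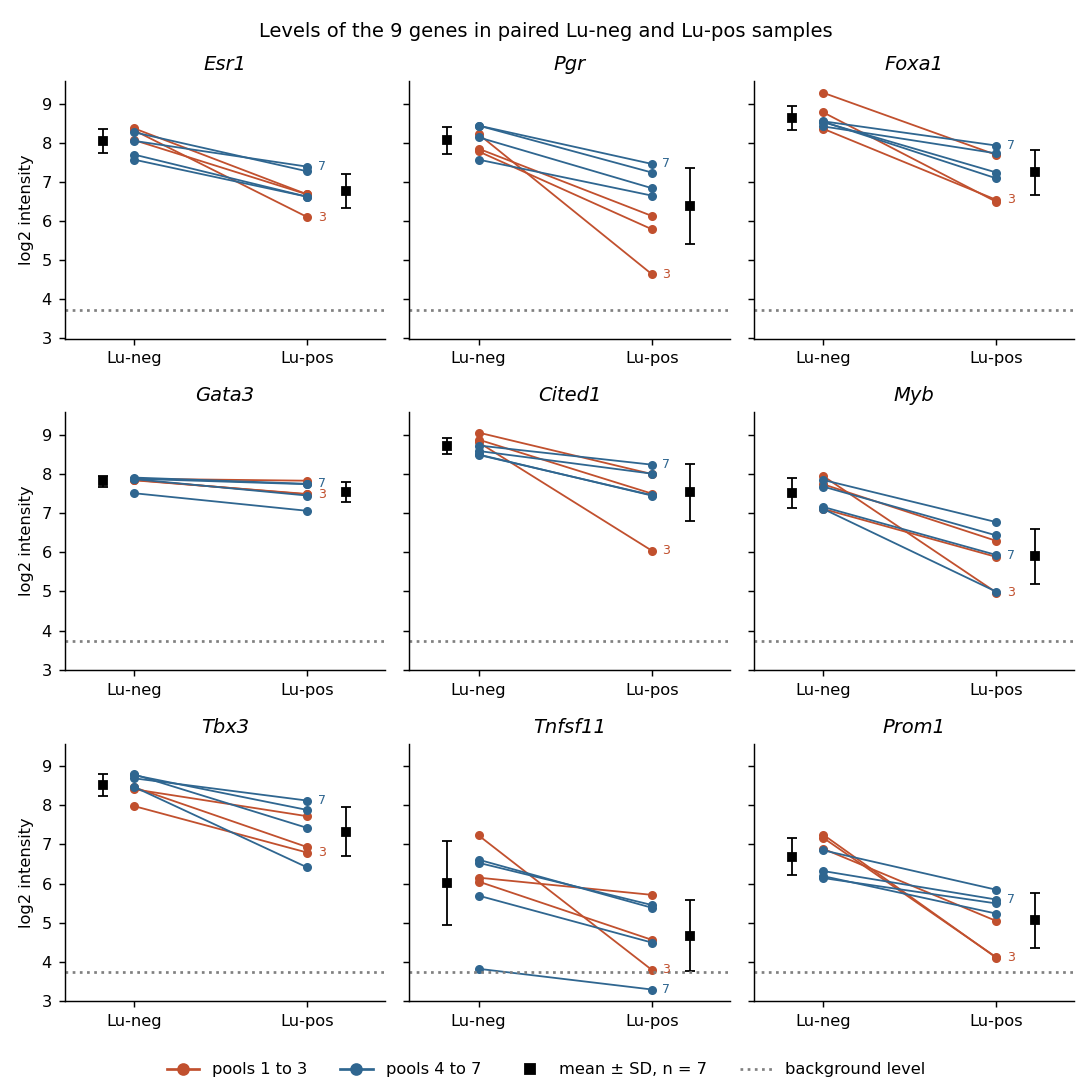
Levels of the 9 genes (log2 intensity, vertical axis) in the 7 Lu-neg and 7 Lu-pos arrays, with a line joining the samples of each pool (orange for pools 1 to 3, blue for 4 to 7), squares and bars for the mean ± SD (n = 7) and a dotted line at background. Every line falls from Lu-neg to Lu-pos, steeply for Pgr, Myb and Prom1 and by 0.05 to 0.45 for Gata3.

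Both nuclear receptors fell. Esr1, which encodes the estrogen receptor alpha, ranged from 7.57 through a median of 8.07 to 8.37 in Lu-neg and from 6.10 through 6.68 to 7.39 in Lu-pos, with no overlap. Its log2 fold change was -1.28 (standard error 0.17, 95% interval -1.67 to -0.90, adjusted p = 0.00185, limma), a 2.44-fold lower signal. Pgr, which encodes the progesterone receptor and is itself a target of the estrogen receptor, spanned 7.57 to 8.44 in Lu-neg, with a median of 8.14. In Lu-pos it spanned 4.64 to 7.46, with a median of 6.65, so the Lu-pos arrays were lower and more widely spread and the populations did not overlap. The log2 fold change of Pgr was -1.67 (standard error 0.29, 95% interval -2.31 to -1.03, adjusted p = 0.00572), or 3.18-fold. Both receptors stayed above background in each Lu-pos array.

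Of the lineage factors and cofactors, Foxa1, Cited1, Myb and Tbx3 fell. Foxa1, the pioneer factor that lets the estrogen receptor reach its sites, was between 8.36 and 9.28 in Lu-neg (median 8.54) and between 6.49 and 7.93 in Lu-pos (median 7.24). The lowest Lu-neg array was thus above the highest Lu-pos array, and the log2 fold change was -1.39 (standard error 0.19, 95% interval -1.82 to -0.97, adjusted p = 0.00208). Cited1, a coactivator that binds the estrogen receptor, was between 8.49 and 9.06 in Lu-neg (median 8.73) and between 6.04 and 8.24 in Lu-pos (median 7.50). The populations did not overlap, but pool 3 of Lu-pos, at 6.04, stood far below the next array, at 7.45. The log2 fold change of Cited1 was -1.19 (standard error 0.24, 95% interval -1.73 to -0.66, adjusted p = 0.0111).

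Myb, a transcription factor known in human breast cancer cells as an estrogen-responsive gene, was between 7.11 and 7.95 in Lu-neg (median 7.68) and between 4.97 and 6.77 in Lu-pos (median 5.93). Its arrays did not overlap, and the log2 fold change was -1.62 (standard error 0.22, 95% interval -2.11 to -1.13, adjusted p = 0.00191), a 3.07-fold lower signal. A second Myb probe set gave -1.32 (standard error 0.16) and was also lower in 7 of 7 pools. Tbx3, a T-box repressor needed for the mammary gland to form in the embryo, was between 7.98 and 8.79 in Lu-neg (median 8.47) and between 6.41 and 8.12 in Lu-pos (median 7.42). The highest Lu-pos array of Tbx3, from pool 7, was above the lowest Lu-neg array, from pool 3. Within its own pool each Lu-pos sample was the lower one, and the log2 fold change was -1.19 (standard error 0.17, 95% interval -1.57 to -0.81, adjusted p = 0.0025).

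Gata3 differed least among the 9. It was between 7.51 and 7.91 in Lu-neg (median 7.87) and between 7.06 and 7.83 in Lu-pos (median 7.49), and the populations overlapped. The log2 fold change was -0.28 (standard error 0.08, 95% interval -0.46 to -0.10, adjusted p = 0.0551, limma), a 1.21-fold lower signal, which did not pass the threshold. A second, dimmer Gata3 probe set had means of 5.64 ± 0.45 in Lu-neg and 5.07 ± 0.25 in Lu-pos (SD, n = 7 each) and was lower in 6 of 7 pools. With the mean of both probe sets as the gene's level, the log2 fold change was -0.42 and the adjusted p 0.0466, so the call depended on how the probe sets were joined. The 95% interval of the brighter Gata3 probe set did not reach the interval of any of the other 8 genes. The second changed by -0.57 (standard error 0.20), a larger and less precise fall, so the separation is stated for the brighter one only. Since these are different probe sets, the sizes are set side by side and not tested.

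Tnfsf11, the membrane-bound ligand RANKL, was the most variable member in Lu-neg. Its Lu-neg arrays ranged from 3.82 in pool 7 through a median of 6.15 to 7.23 in pool 3, and its Lu-pos arrays from 3.29 through 4.56 to 5.71. The ranges overlapped, and the level in pool 7 of Lu-pos was below background. Paired within pools the log2 fold change was -1.34 (standard error 0.31, 95% interval -2.03 to -0.65, adjusted p = 0.0207), or 2.54-fold. Without the pool as a block the adjusted p was 0.099, and without pool 2 it was 0.055, with a log2 fold change of -1.32. Prom1, the surface protein CD133 that has been used to sort hormone receptor-bearing luminal cells of the mouse, was between 6.14 and 7.25 in Lu-neg (median 6.85) and between 4.10 and 5.84 in Lu-pos (median 5.23). Its populations did not overlap, and the log2 fold change was -1.63 (standard error 0.33, 95% interval -2.37 to -0.89, adjusted p = 0.0123).

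**Figure D2:**
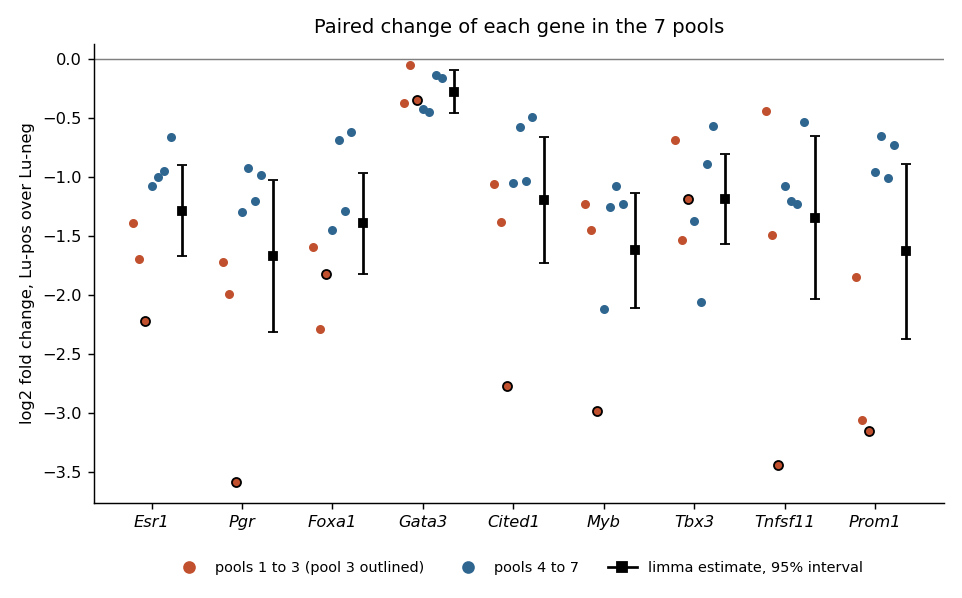
Log2 fold change of Lu-pos over Lu-neg (vertical axis) of each gene in each pool, with the limma estimate and its 95% interval as a square and bar. Pool 3, outlined, has the lowest value for Esr1, Pgr, Cited1, Myb, Tnfsf11 and Prom1. Pools 1 to 3 lie below pools 4 to 7 for Esr1, Pgr, Foxa1, Prom1 and, narrowly, Cited1.

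The size of the fall varied among pools. In pool 3 it was the steepest of the 7 pools for 6 of the 9 genes, at -2.22 for Esr1, -3.58 for Pgr, -2.77 for Cited1, -2.98 for Myb, -3.44 for Tnfsf11 and -3.15 for Prom1 on the log2 scale. Over all genes, 14.9% had their lowest paired difference in pool 3. The lowest Lu-pos level was in pool 3 for 5 members, against 17.4% of the 11425 genes above background. Cell markers in pool 3 were 5.73 in Lu-neg and 7.95 in Lu-pos for the mean of 20 luminal progenitor genes, 4.53 and 5.66 for 13 basal genes, and 4.07 and 3.995 for 10 endothelial genes. The part of these marker levels in the pool 3 values was not tested. Without pool 3 the 8 called members were still called, with Pgr at -1.35 and Tnfsf11 at -0.995.

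The members were more widely spread in Lu-pos than in Lu-neg. The SD over 7 arrays was larger in Lu-pos for 8 of the 9 genes, Tnfsf11 being the exception, and for 56.6% of all genes above background. The members' median SD was 0.313 in Lu-neg and 0.693 in Lu-pos, while over all genes above background it was 0.285 and 0.310. Among other listed genes called lower, only Esrrg, Pgrmc1, Tfap2b, Xbp1, Stat5a, Wnt5a and Fzd4 had the larger SD in Lu-neg. All the rest had it in Lu-pos, such as Wfdc2 (0.295 in Lu-neg, 0.646 in Lu-pos) and Stc2 (0.683 and 1.03). Of the 17 progenitor markers called higher, only Hey1, Rspo1, Lbp and Sox10 had the larger SD in Lu-pos. All the others had it in Lu-neg, such as Kit (0.992 and 0.490) and Ltf (1.15 and 0.289). A wider spread in Lu-pos was not particular to the members, and its relation to level was not tested.

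Earlier results of these data showed pools 1 to 3 apart from pools 4 to 7 in both populations, and no label explains the split. In 5 members, Esr1, Pgr, Foxa1, Cited1 and Prom1, the paired differences of pools 1 to 3 all lay below those of pools 4 to 7, as in 3.1% of all genes (9.04% for a split in either direction). For Cited1 the nearest pools hardly differed, at -1.06 in pool 1 and -1.05 in pool 4. Prom1 showed the widest gap, with a mean log2 fold change of -2.69 in pools 1 to 3 and -0.84 in pools 4 to 7. The difference between the sets was 1.85 (standard error 0.31), with an unadjusted p of 0.000264 and an adjusted p of 0.188 from limma on the 7 paired differences. Pgr changed by -2.43 and -1.10 in the respective sets, a difference of 1.33 (standard error 0.40, adjusted p = 0.428). For Esr1 the difference was 0.84 (standard error 0.22, adjusted p = 0.352), for Foxa1 0.89 (standard error 0.27, adjusted p = 0.426) and for Cited1 0.95 (standard error 0.39, adjusted p = 0.539). None of the 9 passed adjustment, and 3 genes of all tested did (0.0135%). Of the members, 5 had an unadjusted p under 0.05 against 8.91% of genes. The split was found in these same arrays, so these limma p-values describe it and do not test it. For Gata3 and Tbx3 the sets differed by -0.04 (standard error 0.17) and -0.09 (standard error 0.36). Of other genes called lower in Lu-pos, Slc7a2 changed by -2.76 in pools 1 to 3 and -1.14 in pools 4 to 7. Prom2 changed by -1.75 and -0.94, and Wfdc2 by -1.94 and -0.925. Wnt4 (-1.07 and -1.02) and Xbp1 (-0.52 and -0.51) hardly differed between the sets. A deeper fall in pools 1 to 3 was thus not particular to the members. The median change of 10 endothelial markers was 0.38 in pools 1 to 3 and -0.86 in pools 4 to 7, and that of 13 basal markers 0.54 and -0.03; their part in the members' split was not tested.

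The gap of Prom1 was on both sides: its mean level was 7.10 in Lu-neg of pools 1 to 3 and 6.38 in pools 4 to 7, and 4.42 and 5.54 in Lu-pos. The sets did not overlap for Prom1 in either population, but in Lu-neg the nearest arrays were close, at 6.89 in pool 1 and 6.85 in pool 6. For Pgr the Lu-neg means were 7.95 and 8.15 and the Lu-pos means 5.52 and 7.05, and only the Lu-pos levels separated the sets. Cited1 and Tbx3 separated them in Lu-neg, in opposite directions. For Tbx3 the gap was narrow, from 8.46 in pool 2 to 8.47 in pool 5.

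Co-variation of receptors, cofactors and the mediator over pools was examined as Pearson and Spearman correlations over the 7 pools, with exact two-sided permutation p-values adjusted within each family. No pooled correlation is given where a gene's values separate pools 1 to 3 from pools 4 to 7, which left 15 pairs of genes in Lu-neg, 21 in Lu-pos and 6 for the paired differences. The adjustment covered only the pairs left and not all 36 that were planned, and genes were left out on their observed values. Tbx3 in Lu-neg and Cited1 in the paired differences were left out on a narrow gap between the sets. Among Lu-neg levels the median r was -0.05 (range -0.59 to 0.69), 1 pair had an unadjusted permutation p under 0.05, and none passed adjustment (lowest adjusted p = 0.458). Among Lu-pos levels 16 of 21 pairs had a positive r, the median was 0.16, 3 pairs had an unadjusted permutation p under 0.05 and 1 passed adjustment. Without pool 3 the median r in Lu-pos was -0.03.

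The pair that passed was Esr1 and its coactivator gene Cited1 in Lu-pos. Esr1 was lowest in pool 3, at 6.10, and highest in pools 5 and 7, at 7.27 and 7.39. Cited1 followed, at 6.04 in pool 3 and 8.01 and 8.24 in pools 5 and 7. Pearson's r was 0.870 (exact permutation p = 0.000794, adjusted p = 0.0167) and Spearman's rho was 0.982 (exact permutation p = 0.00159, adjusted p = 0.0333). Leaving out pools 5 and 7, the farthest from the median of Esr1, r was 0.967, and leaving out pool 3 it was 0.822. Foxa1 and Cited1 in Lu-pos had an r of 0.799 (exact permutation p = 0.0113, adjusted p = 0.119) and Esr1 and Foxa1 one of 0.789 (exact permutation p = 0.0468, adjusted p = 0.328); neither passed adjustment.

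**Figure D3:**
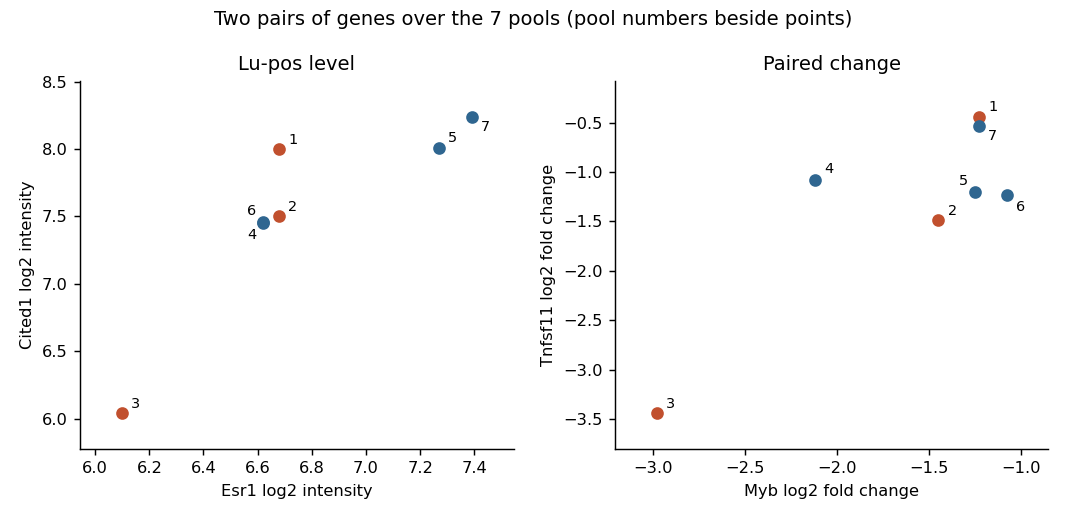
Left, level of Cited1 against level of Esr1 in the 7 Lu-pos arrays (log2 intensity); right, paired log2 fold change of Tnfsf11 against that of Myb. Numbers are pools, with pools 1 to 3 in orange and 4 to 7 in blue; the left points rise together, while on the right pool 3 stands far below the other 6.

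Among paired differences, all 6 pairs had a positive r, with a median of 0.308. Myb and Tnfsf11 had the highest, 0.840, but rho was 0.487 (exact permutation p = 0.271) and the p of r was 0.0611 (exact permutation, adjusted p = 0.367). Without pool 3 alone, r was 0.196, and without pools 3 and 4 it was 0.323, so the relation rested on pool 3. For 5 genes the Lu-neg level could be set against the Lu-pos level of the same pool, and the adjustment covered these 5 and not all 9 as planned. Gata3 had an r of 0.870 (exact permutation p = 0.00952, adjusted p = 0.0476) and a rho of 0.793 (exact permutation p = 0.0397, adjusted p = 0.198). Pool 5 was lowest in each population, at 7.51 in Lu-neg and 7.06 in Lu-pos. The other Lu-neg levels lay between 7.84 and 7.91, too close together to rank the pools. Without pools 5 and 7 its r was 0.738. Esr1 (r = 0.03), Foxa1 (0.21), Myb (0.28) and Tnfsf11 (0.51) did not pass the same exact permutation test.

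Other genes of the pathway were called in both directions. Genes without a probe set of their own single symbol were not analysed here, which left 20 of 22 listed hormone receptors, 20 of 23 coregulators, 26 of 28 paralogs and partners, 32 of 34 target genes, 17 of 20 mediators and 23 of 23 receptors and decoys of the mediators. Of 20 other hormone receptors, 2 were called lower and 2 higher, with a median log2 fold change of 0.05. Esrrg, an orphan receptor related to the estrogen receptors, fell by 0.66 (standard error 0.17, adjusted p = 0.0304) and Pgrmc1, a membrane-associated progesterone-binding protein, by 0.51 (standard error 0.11, adjusted p = 0.0142). Vdr, the vitamin D receptor, rose by 1.19 (standard error 0.21, adjusted p = 0.00655) and Nr3c1, the glucocorticoid receptor, by 0.60 (standard error 0.14, adjusted p = 0.0196). Of 20 coregulators of nuclear receptors, 0 were called lower and 2 higher, the coactivator genes Ncoa1 (0.63, standard error 0.12) and Ncoa3 (0.34, standard error 0.09). Over all genes 7.19% were called lower and 4.35% higher, and these shares are the background for each list counted here and below.

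**Figure D4:**
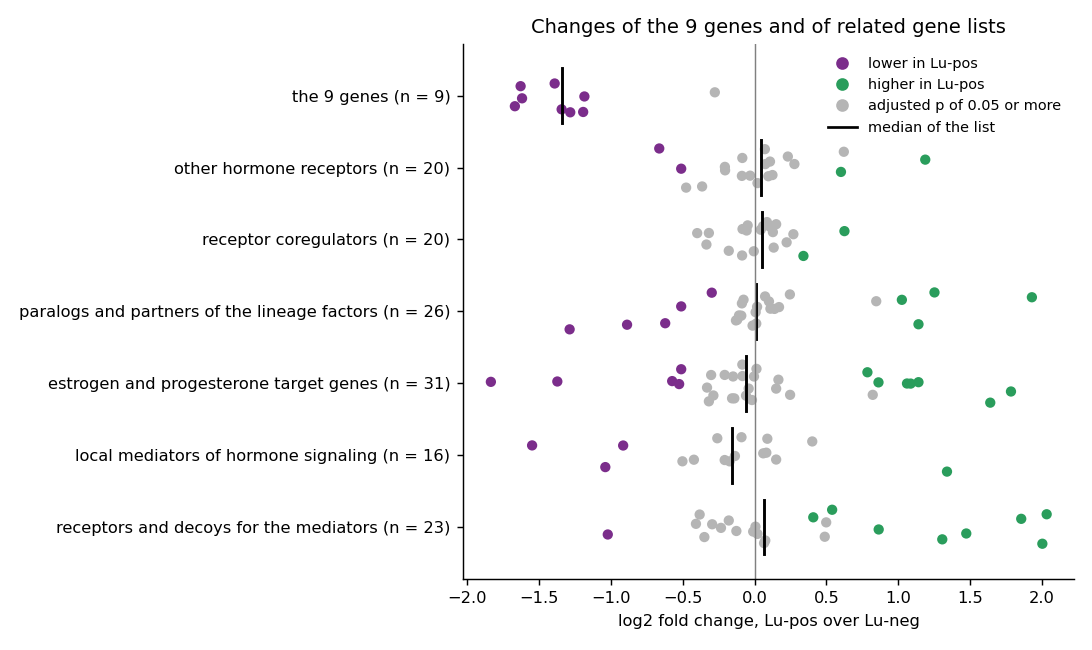
Log2 fold change of Lu-pos over Lu-neg (horizontal axis) of the 9 genes and of the other members of 6 related lists, 1 point per gene, with black bars at the medians. The 9 genes have a median of -1.34, and the medians of the lists lie between -0.16 and 0.07, with called genes on both sides in 5 of the 6 lists.

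Among 26 paralogs and partners of the lineage factors, 5 were lower and 4 higher, with a median of 0.01. Paralogs did not all move with the member: Prom2, the paralog of Prom1, fell by 1.29 (standard error 0.21, adjusted p = 0.0046), whereas Mybl1, a paralog of Myb, rose from 3.72 ± 0.23, just below background, to 4.86 ± 0.43 (SD, n = 7 each; adjusted p = 0.000962). The log2 fold change of Cited2, a paralog of Cited1, was 0.85 (standard error 0.25) and did not pass (adjusted p = 0.0625). Spdef, an ETS factor of luminal cells, fell by 0.89 (standard error 0.13, adjusted p = 0.0033). Tfap2c, an AP-2 factor, rose from 3.64 ± 0.83, also below background, to 5.57 ± 0.33 (SD, n = 7 each; adjusted p = 0.000829); a rise from below background has no measured size. Bcl11a, a factor of mammary progenitors, rose by 1.25 (standard error 0.17).

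Of 31 other genes reported as estrogen or progesterone targets, mostly in human breast cancer cells, 5 were lower and 7 higher, with a median of -0.06. Slc7a2, a transporter of cationic amino acids, fell by 1.84 (standard error 0.35, adjusted p = 0.00938), and Stc2, a secreted glycoprotein, fell by 1.37 (standard error 0.14, adjusted p = 0.000804). Igfbp5, which binds insulin-like growth factors, rose by 1.79 (standard error 0.23, adjusted p = 0.00157) and Bcl2, which blocks apoptosis, by 1.64 (standard error 0.24, adjusted p = 0.00276).

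Local mediators beside Tnfsf11 gave 3 lower and 1 higher of the 16 measured, with a median of -0.16. The mediators Areg and Calca, which the paper names, were not analysed here, so the count does not cover all known mediators. Tgfb1, a growth inhibitor of mammary epithelium, fell from 7.36 ± 0.19 to 5.81 ± 0.39 (SD, n = 7 each; adjusted p = 0.000831). Wnt4, which relays progesterone signaling, fell from 7.05 ± 0.19 to 6.01 ± 0.34 (SD, n = 7 each; adjusted p = 0.000826), with no overlap between the populations. Wnt5a fell by 0.92 (standard error 0.13), and Adamts1, a secreted protease, rose by 1.34 (standard error 0.33, adjusted p = 0.0304).

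In the list of receptors and decoys of these mediators, which also holds some of their partners, 8 of 23 genes were called higher and 1 lower. Over all genes 4.35% were called higher and 7.19% lower. Egfr, the receptor of amphiregulin, rose by 2.03 (standard error 0.28, adjusted p = 0.00219) and Rspo1, a secreted enhancer of WNT signaling that stands in this list with its receptors, from 5.01 to 7.01 (standard error of the change 0.18, adjusted p = 0.000456). The other genes called higher were Traf6, an intracellular adaptor of RANK, and the receptor genes Lgr6, Erbb4, Cxcr4, Lgr4 and Tnfrsf11a. Tnfrsf11a, which encodes RANK, the receptor of the Tnfsf11 product, was higher in 7 of 7 Lu-pos samples but near background, at 3.63 ± 0.21, below it, in Lu-neg and 4.04 ± 0.23 in Lu-pos (SD, n = 7 each; adjusted p = 0.0367). Fzd4, a WNT receptor, fell by 1.02 (standard error 0.16). Tnfrsf11b, the decoy receptor osteoprotegerin, was below background in both populations, at 3.40 and 3.02.

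Markers of other cells were read beside the members. Of 20 luminal progenitor markers, 17 were higher and 0 lower in Lu-pos, and their mean level ranged from 5.72 to 6.84 over Lu-neg arrays and from 7.81 to 8.01 over Lu-pos arrays. Basal markers gave 1 higher and 0 lower of 13, with mean levels of 4.53 to 6.70 in Lu-neg and 5.48 to 6.48 in Lu-pos. Of 13 immune markers 0 were called and 2 were above background, with mean levels of 2.88 to 3.36 and 3.13 to 3.45. Of 10 endothelial markers 2 were lower, Vwf and Eng, and mean levels were 4.07 to 5.93 and 3.72 to 5.87. Of 12 fibroblast and adipocyte markers 1 was lower and 0 higher, with mean levels of 3.96 to 5.10 and 4.50 to 5.14. The lower one was Dcn, a matrix proteoglycan of fibroblasts, at 9.38 ± 1.23 in Lu-neg and 8.89 ± 1.42 in Lu-pos (SD, n = 7 each), lower in 7 of 7 pools with a log2 fold change of -0.49 and an adjusted p of 0.0117 from limma. Fabp4, listed here with the adipocyte genes, changed by 1.33 in pools 1 to 3 and -1.20 in pools 4 to 7. Of the other adipocyte genes listed, Adipoq (2.84 in Lu-neg, 2.87 in Lu-pos) and Lep (3.45 and 3.38) were below background. Plin1 was just above it (3.77 and 3.89). The part of these cells in the members' levels was not tested.

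The genes whose pattern over the 14 arrays was most like the mean of the members' standardized levels were Podxl (r = 0.981), Eps8 (0.977), Dgat2 (0.973), Tox2 (0.970) and Tspan13 (0.967), each of them lower in Lu-pos, by 1.32 to 1.91 on the log2 scale. These correlations share the difference between the populations and are a description. After each population's mean was subtracted, the gene most like Esr1 over the same 14 arrays was Nek7 (r = 0.874), and for Foxa1 it was Clip4 (0.887). The closest match of Gata3 was Pla2g12a (0.910), of Myb Pot1a (0.928) and of Tnfsf11 C8g (0.868). None is given for Pgr, Cited1, Tbx3 and Prom1, whose levels separate pools 1 to 3 from pools 4 to 7. Each is the highest of 11425 genes above background.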

How the data were processed

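The deposited values are the authors' log2 intensities for each probe set of whole-transcript arrays. RMA and, without a version, the Affymetrix Expression Console are named in the submitters' notes. The other software of the paper was not used, and quantile normalization was applied only as an alternative, to the deposited gene levels. Of 41345 probe sets, 23521 carry 1 symbol, 1820 several and 16004 none; the brightest stood for a gene. A further probe set that carries Gata3 beside other symbols was not analysed here. Array medians were 3.46 to 3.58, and no 2 arrays were identical. Depth in reads does not apply to arrays; their number limits the precision. Populations and pools come from the labels.

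The populations were compared with lmFit and eBayes (limma 3.58.1, R 4.3.3) with the pool as a block, as the methods use a paired test. To check the pairing, each array's deviation from its group mean was correlated with that of its partner, which gave 0.166 to 0.256, and across the populations 6 of 7 pairs matched best with each other (pool 7 did not). Levels below 3.73 count as background.

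The members and lists were chosen with earlier results of these data known, and Esr1, Pgr, Tnfsf11, Prom1, Wnt4, Rspo1 and the progenitor markers Met, Elf5, Hey1, Tspan8 and Aldh1a3 are named in the paper from these arrays, so their direction is not independent evidence. Every member was named, and in each list the called genes above background that fell or rose most, at most 2 each way. Mybl1, Cited2, Wnt4, Wnt5a, Tnfrsf11a, Tnfrsf11b and the other called genes of the receptor list were named after their values were seen. So were Vwf, Eng, Dcn, Fabp4, Adipoq, Lep and Plin1. Alternatives were no block, the methods' paired t-test, trend and robust eBayes, array weights, a background filter, the mean of probe sets, 3 scalings, each set of pools alone and each pool left out. Applying these alternatives to the list genes, and the fold threshold with the t-test, were chosen after seeing the data.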

Additional observations from a re-analysis of the deposited data

Results flagged for a closer look

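In 27 groups of 7 values (the Lu-neg levels, the Lu-pos levels and the paired differences of each of the 9 genes), the gap between an extreme value and its neighbour was set against the range of the group. A gap above Dixon's 95% critical value for 7 values was noted, which chance alone gives in about 1 of 20 groups. Pool 3 stood apart in 4 of the 5 cases. Its paired difference was lowest for Pgr (-3.58, gap 0.598 of the range), Cited1 (-2.77, gap 0.610) and Tnfsf11 (-3.44, gap 0.65), and its Lu-pos level was lowest for Cited1 (6.04, gap 0.641). The Lu-neg level of Gata3 in pool 5, 7.51, was below the other 6 pools with a gap of 0.825.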

How the results depend on the processing

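Each of the 9 genes kept its direction under all 19 alternatives. Without the pool as a block, Tnfsf11 was at -1.34 (adjusted p = 0.099) and 7 members were called; the pairing changed no other member's call. The methods' paired t-test with Benjamini-Hochberg adjustment called 737 genes lower and 459 higher and 4 members; Pgr (-1.67, adjusted p = 0.053), Cited1 (-1.19, adjusted p = 0.0734), Tnfsf11 (-1.34, adjusted p = 0.106) and Prom1 (-1.63, adjusted p = 0.0806) were not called. With its uncorrected p alone 2940 genes were lower and 1809 higher, and Gata3 passed (-0.28). With the fold of at least 1.5 that the methods also ask for, 1037 were lower and 724 higher, with 8 members and without Gata3. The mean of probe sets called Gata3 (-0.42) and so all 9. Pools 1 to 3 alone gave 489 lower and 459 higher genes and 6 members, without Cited1 (-1.74) and Tnfsf11 (-1.79); pools 4 to 7 alone gave 515 lower, 296 higher and 7 members, without Tbx3 (-1.22). These sets hold fewer pools. Leaving out each pool, 7 to 8 members were called, and Tnfsf11 lay between -1.495 and -0.995. Housekeeping scaling turned the median r of Lu-neg levels from -0.05 to 0.13; the cause was not tested.

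Among related genes, leaving out 1 pool ended the calls of Esrrg (pool 1, 2, 4, 5 or 7; adjusted p up to 0.079), Ncoa3 (every pool but 4; up to 0.117), Adamts1 (pool 1, 3 or 5; up to 0.0816), Tnfrsf11a (pool 2, 3, 5, 6 or 7; up to 0.0925) and Nr3c1 (pool 7; 0.0546). The marker gene Eng lost its call without pool 2, 3, 4, 6 or 7 (adjusted p up to 0.0732). Without the block, Stc2 (adjusted p = 0.0523), Esrrg, Ncoa3, Eng and Dcn were not called. The methods' paired t-test after adjustment did not call Slc7a2 (0.0698), Vdr (0.0541), Ncoa1 (0.0521), Pgrmc1 (0.0534), Nr3c1 (0.0801), Ncoa3 (0.0793), Tnfrsf11a (0.0877), Esrrg (0.111), Adamts1 (0.129), Eng (0.122) or Icam1 (0.149). Levels near background and the number of pools limit Tnfsf11 and Tnfrsf11a.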
